A study of Homo sapiens with 12 samples.

Results

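The subunits of the class I histone deacetylase (HDAC) corepressor complexes were followed over 4 groups of HepG2, a line derived from a human liver tumour. The set holds 36 genes chosen by name as subunits of SIN3, NuRD, CoREST, NCoR/SMRT and MiDAC, and all 36 were matched by gene identifier among the 62475 genes counted. Cells with the HDAC1_S434A genotype (S434A, a serine-to-alanine change of HDAC1) or with wild-type HDAC1 (WT) were each profiled by RNA sequencing with H89 and without it, in 3 biological replicates per group and 12 libraries in all. The groups were S434A with H89, S434A without H89, WT with H89 and WT without H89. H89 inhibits protein kinase A (PKA), and it is known to inhibit other kinases too. How the S434A allele was introduced, the number of clones, the dose of H89 and the time of treatment are not stated in the labels. In WT cells without H89 SIN3A, SAP130, RCOR1 and NCOR1 had their lowest group means, and SAP18, SAP30, BRMS1, HMG20B and DNTTIP1 their highest.

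HDAC1 and HDAC2 have little target choice of their own and work inside large complexes, in which a scaffold protein holds the deacetylase and other subunits read histones or DNA. SIN3, NuRD, CoREST and MiDAC carry HDAC1 or HDAC2, while NCoR/SMRT carries HDAC3. In liver such complexes are known for repression of metabolic genes, the NCoR/SMRT complex through nuclear receptors.

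Total counts ran from 17562754 to 37187794 per library. CPM below are read counts divided by library size, in the usual CPM unit, with library sizes scaled by the trimmed mean of M-values (TMM), and FPKM are those CPM per kilobase of the gene's deposited exon length. In bulk RNA these are shares of a library, so that fewer cells and less RNA per cell cannot be told apart. HDAC1 averaged 618 ± 64.0 CPM in S434A with H89, 708 ± 46.8 CPM in S434A without H89, 697 ± 33.8 CPM in WT with H89 and 688 ± 13.6 CPM in WT without H89 (SD, n = 3), and counts per gene do not show the amino acid change. It passed in no comparison of the counts as deposited. With trends over GC content and exon length taken out of every library, HDAC1 was at 0.22 log2 units in S434A relative to WT cells without H89 (adjusted p = 0.0225), at -0.23 with H89 in S434A cells (adjusted p = 0.0223), at 0.19 with H89 in WT cells (adjusted p = 0.0347) and at -0.42 for the difference of these H89 effects (adjusted p = 0.00492), and it did not pass between the genotypes with H89. All 8 hepatocyte markers listed were tested, and their summed level was 44026 to 45083, 33145 to 54298, 43581 to 48359 and 72820 to 73371 CPM in the same order. None of 5 fibroblast markers passed the filter on low counts, and COL1A2 and DCN were at 0 counts in every library. Of the blood markers PTPRC and CD3E were at 0, and LYZ was at 2002 to 2058, 2332 to 2869, 1847 to 2018 and 4328 to 4455 CPM in the same order. Of the 3 endothelial markers matched 2 passed and KDR was at 0. Ribosomal protein genes took 7.93 to 7.94%, 9.51 to 11.5%, 7.37 to 7.77% and 19.4 to 20.0% of counts in that order, and mitochondrially encoded mRNAs 5.57 to 5.94%, 3.16 to 7.02%, 4.91 to 6.26% and 1.48 to 1.51%. The 36 subunits together took 0.185 to 0.187% of counts in S434A with H89, 0.155 to 0.164% in S434A without H89, 0.184 to 0.188% in WT with H89 and 0.138 to 0.139% in WT without H89. Replicate 1 of S434A without H89 differed from its fellow replicates in genes of low GC content, as given with the values it touches. The part of these library differences in the results was not tested, except where values with GC and length trends removed are given.

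Per kilobase, the levels of the subunits covered a wide range. Averaged over the groups, SAP18 was the highest at 48.1 FPKM, followed by DNTTIP1 at 34.8, KDM1A at 24.7, HMG20B at 21.0 and RBBP7 at 17.3 FPKM. The lowest were ARID4A at 0.73, ARID4B at 0.90, RCOR3 at 0.93 and CHD4 at 0.93 FPKM. The highest of each complex were SAP18 in SIN3, RBBP7 among the pair that SIN3 and NuRD share, MTA2 in NuRD, KDM1A in CoREST, TBL1X in NCoR/SMRT and DNTTIP1, the one subunit followed of MiDAC. For CHD4, 53.5% of exon bases also lie in exons of another annotated gene, and for GPS2 52.5%, so that their levels are uncertain: by featureCounts' default a read that fits more than 1 gene is given to none, and no other option was set. RBBP4 shares 22.8% of its exon bases, mostly with SYNC, and has 7 listed pseudogenes, none with more than 30 counts in all 12 libraries together. Within a group, the median coefficient of variation of the 36 subunits was 4.50% in S434A with H89, 16.5% in S434A without H89, 5.01% in WT with H89 and 3.87% in WT without H89. It was highest for ZMYM2 in S434A without H89, at 82.2%.

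**Figure D1:**
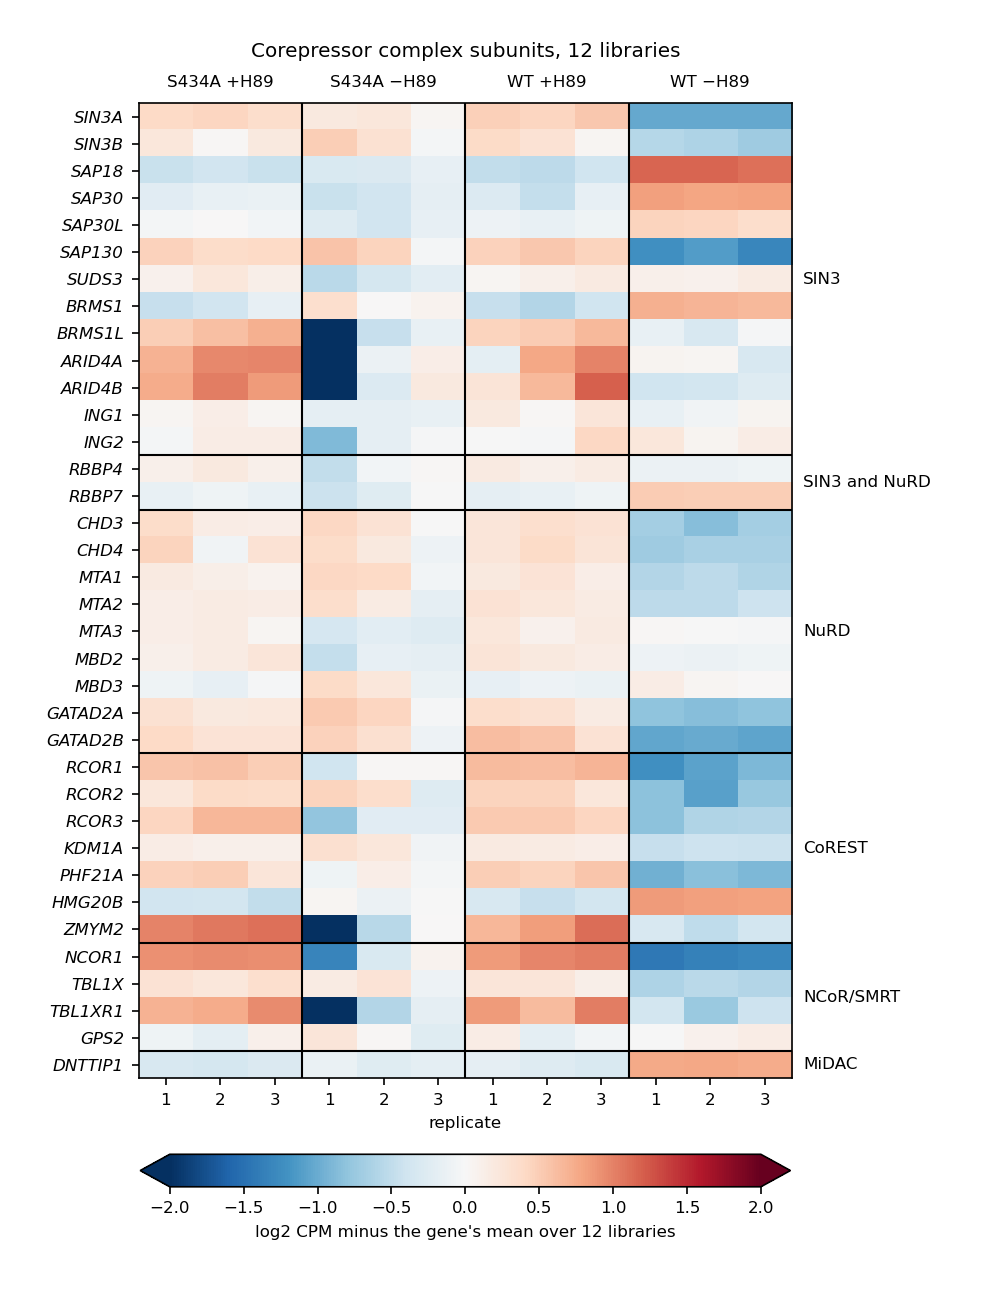
Level of each of the 36 subunits in each of the 12 libraries, as log2 CPM minus the gene's mean over the 12 libraries (colour; values beyond the scale take the end colour), by complex (rows) and by group and replicate (columns). WT without H89 is low in SIN3A, SAP130, GATAD2B, RCOR1 and NCOR1 and high in SAP18, SAP30, BRMS1, HMG20B and DNTTIP1, and replicate 1 of S434A without H89 is low in ARID4A, ARID4B, BRMS1L, ZMYM2 and TBL1XR1.

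The SIN3 complex is built on the scaffolds SIN3A and SIN3B. SIN3A (chr15:75661720-75748183, minus strand, hg19) had 57.8, 58.6 and 55.8 CPM in S434A with H89, 50.1, 51.0 and 45.0 CPM in S434A without H89, 60.7, 58.6 and 63.2 CPM in WT with H89, and 21.4, 21.4 and 21.4 CPM in WT without H89. The libraries of WT without H89 were below all 9 others, and those of S434A with H89 lay above those of S434A without H89. By edgeR's quasi-likelihood test over 14435 genes, SIN3A rose by 1.51 log2 units (SE 0.068, adjusted p = 1.22e-08) with H89 in WT cells and by 1.19 log2 units (SE 0.068, adjusted p = 4.35e-07) in S434A relative to WT cells without H89. With H89 in S434A cells it rose by 0.24 log2 units (adjusted p = 0.0130). Once a smooth trend over GC content and exon length was taken out of every library, the changes with H89 in WT cells and between the genotypes were 0.66 and 0.78 log2 units, both past the test but under 2-fold. That with H89 in S434A cells turned to -0.18 and did not pass (adjusted p = 0.105). SIN3B, its paralog, was at 42.2 ± 7.53 CPM in S434A and 22.6 ± 0.999 CPM in WT cells without H89 and rose by 0.90 log2 units between them (adjusted p = 0.000164), though at -0.10 and no longer past the test with these trends removed.

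Of the SIN3-associated proteins, SAP18 is also part of a splicing-associated complex. SAP18 (chr13:21714653-21723223, plus strand, hg19) had 106, 111 and 107 CPM in S434A with H89, 117, 118 and 129 CPM in S434A without H89, 103, 100.5 and 109 CPM in WT with H89, and 324, 324 and 309.9 CPM in WT without H89. Every library of WT without H89 was above every other library. SAP18 fell with H89 in WT cells, at -1.62 log2 units (SE 0.059, adjusted p = 5.04e-09), and in S434A relative to WT cells without H89, at -1.40 log2 units (SE 0.058, adjusted p = 3.84e-07). It also fell with H89 in S434A cells, at -0.17 log2 units (adjusted p = 0.0291). With the trends removed it was at -1.44 log2 units with H89 in WT cells, at -0.62 between the genotypes without H89, under 2-fold there, and at -0.85 with H89 in S434A cells. After that step SAP18 in S434A without H89 was at 175 ± 58.2 CPM, against 121 ± 6.58 CPM as deposited. Without replicate 1 of S434A the trend-removed change between the genotypes was -0.93 log2 units. SAP30 (chr4:174291120-174298683, plus strand, hg19), which links SIN3 to its deacetylase, had 13.5, 14.3 and 14.4 CPM in S434A with H89, 11.6, 12.1 and 14.02 CPM in S434A without H89, 13.1, 11.4 and 14.1 CPM in WT with H89, and 27.8, 27.2 and 27.6 CPM in WT without H89. Again WT without H89 was high in all 3 replicates, and the other 9 libraries lay together. SAP30 was at -1.09 log2 units (SE 0.11, adjusted p = 4.24e-06) with H89 in WT cells and at -1.13 log2 units (SE 0.11, adjusted p = 7.23e-06) in S434A relative to WT cells without H89, falls in both. After trend removal both passed but were under 2-fold, at -0.27 log2 units (adjusted p = 0.0200) and -0.73. Its paralog SAP30L moved the same way by less, at -0.52 log2 units (adjusted p = 0.000103) and -0.67 (adjusted p = 2.46e-05) in the same comparisons.

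SAP130, a SIN3A-binding subunit, went the other way from SAP18 and SAP30. SAP130 (chr2:128698791-128785694, minus strand, hg19) had 43.8, 41.3 and 42.2 CPM in S434A with H89, 47.2, 43.3 and 31.1 CPM in S434A without H89, 44.1, 46.6 and 43.6 CPM in WT with H89, and 13.6, 14.7 and 12.9 CPM in WT without H89. WT without H89 did not overlap any other group, and replicate 3 of S434A without H89 was the lowest of the other 9 libraries. SAP130 rose by 1.70 log2 units (SE 0.13, adjusted p = 8.07e-07) with H89 in WT cells and by 1.56 log2 units (SE 0.13, adjusted p = 3.71e-06) in S434A relative to WT cells without H89. Once these trends were taken out, these were 1.76 log2 units and 1.41, with the smallest adjusted p of all subunits in both comparisons. SUDS3, which the complex needs for its deacetylase activity, fell in S434A relative to WT cells without H89, at -0.48 log2 units (adjusted p = 0.000721), and rose by 0.50 with H89 in S434A cells (adjusted p = 0.00139), the second of which did not pass with the trends removed, at 0.05.

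BRMS1 and BRMS1L are paralogous subunits, the first named for suppression of breast cancer metastasis. BRMS1 (chr11:66104804-66112596, minus strand, hg19) had 18.5, 19.6 and 22.7 CPM in S434A with H89, 32.1, 25.6 and 27.0 CPM in S434A without H89, 18.6, 16.97 and 19.4 CPM in WT with H89, and 41.8, 41.1 and 40.2 CPM in WT without H89. Both untreated groups lay above both treated groups, and WT without H89 was the highest. BRMS1 fell with H89 in WT cells, at -1.16 log2 units (SE 0.11, adjusted p = 3.24e-06), and in S434A cells, at -0.48 (adjusted p = 0.00509). In S434A relative to WT cells without H89 it was at -0.54 log2 units (adjusted p = 0.00120). With the trends removed it was just under 2-fold with H89 in WT cells, at -0.98 log2 units, and at -0.11 in S434A cells, where it no longer passed. BRMS1L (chr14:36295544-36401531, plus strand, hg19) had 17.1, 18.3 and 19.8 CPM in S434A with H89, 2.42, 8.81 and 10.9 CPM in S434A without H89, 16.6, 17.2 and 19.0 CPM in WT with H89, and 10.95, 9.70 and 11.9 CPM in WT without H89. The first replicate of S434A without H89 was far below its fellows, and the treated groups lay above the untreated ones. BRMS1L rose with H89 in S434A cells by 1.32 log2 units (SE 0.38, adjusted p = 0.0159), by 0.90 without that replicate, and by 0.37 with the trends removed. With H89 in WT cells BRMS1L did not pass in the 12 libraries as deposited, but it passed as a riser with the trends removed.

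ARID4A and ARID4B, DNA-binding subunits with an ARID domain that bind the retinoblastoma protein, showed the same low replicate. ARID4A was at 0.269, 3.99 and 4.73 CPM and ARID4B at 0.646, 6.59 and 9.09 CPM in the 3 libraries of S434A without H89, with 5 counts of ARID4A in the first. No comparison passed for either in the 12 libraries, with log2 changes of 1.41 (SE 0.58) and 1.42 (SE 0.58) for H89 in S434A cells. Without that library they rose by 0.87 log2 units (adjusted p = 0.0136) and 0.89 (adjusted p = 0.00394) there, and by 0.67 (adjusted p = 0.0142) and 1.09 (adjusted p = 0.000120) with H89 in WT cells. The chromatin readers ING1 and ING2, which bind methylated histone tails, had group means of 19.0 to 23.8 and 4.79 to 6.55 CPM. ING1 rose with H89 in both genotypes by small amounts, 0.24 log2 units in S434A cells (adjusted p = 0.0447) and 0.21 in WT cells (adjusted p = 0.0489), and was no longer past the test in either with another scaling (RLE size factors), at 0.14 and 0.07. ING1 did not pass with the trends removed either. ING2 passed in no comparison of the counts as deposited, and with the trends removed it rose with H89 in S434A cells, at 0.49 log2 units (adjusted p = 0.0429).

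RBBP4 and RBBP7 are histone-binding WD40 proteins of both SIN3 and NuRD. RBBP7 (chrX:16857406-16888485, minus strand, hg19) had 112, 117 and 112 CPM in S434A with H89, 92.1, 105 and 123 CPM in S434A without H89, 109, 112 and 117 CPM in WT with H89, and 177, 174 and 175 CPM in WT without H89. WT without H89 lay above all other libraries. RBBP7 fell with H89 in WT cells, at -0.64 log2 units (SE 0.089, adjusted p = 7.57e-05), and in S434A relative to WT cells without H89, at -0.71 log2 units (SE 0.089, adjusted p = 4.97e-05). After trend removal the first was -1.29 log2 units and the second -0.36, no longer past the test (adjusted p = 0.100); without replicate 1 of S434A the second was -0.68 after that step and passed (adjusted p = 2.60e-10). RBBP4 was at 96.7 ± 3.78, 79.4 ± 14.4, 97.7 ± 3.01 and 81.9 ± 1.29 CPM in S434A with H89, S434A without H89, WT with H89 and WT without H89. For RBBP4 only H89 in S434A cells passed, at 0.29 log2 units (adjusted p = 0.0485), and with the trends removed the sign turned to -0.95 (adjusted p = 0.00360). After that step RBBP4 in S434A without H89 spread widely, at 129 ± 48.1 CPM. Relative to WT without H89 it was then at 0.25 log2 units, and at -0.08 without replicate 1 of S434A, and neither passed.

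The NuRD complex joins a chromatin remodeller to the deacetylase. Its ATPases CHD3 and CHD4, its scaffolds MTA1 and MTA2 and its bridging subunits GATAD2A and GATAD2B were all lowest in WT cells without H89. MTA3, a paralog of MTA1, was lowest in S434A without H89. GATAD2A (chr19:19496635-19619740, plus strand, hg19) had 76.7, 70.7 and 71.9 CPM in S434A with H89, 88.8, 83.9 and 60.7 CPM in S434A without H89, 79.1, 76.7 and 69.5 CPM in WT with H89, and 35.5, 34.4 and 35.3 CPM in WT without H89. GATAD2B (chr1:153761506-153895836, minus strand, hg19), its paralog, had 23.9, 21.7 and 21.8 CPM in S434A with H89, 24.7, 22.6 and 16.9 CPM in S434A without H89, 27.7, 26.9 and 21.9 CPM in WT with H89, and 8.80, 8.92 and 8.66 CPM in WT without H89. For both the 3 libraries of WT without H89 were below every other library, and replicate 3 of S434A without H89 was the lowest of the rest. GATAD2A rose by 1.10 log2 units (SE 0.12, adjusted p = 1.30e-05) with H89 in WT cells and by 1.15 log2 units (SE 0.12, adjusted p = 1.68e-05) in S434A relative to WT cells without H89. GATAD2B rose by 1.53 log2 units (SE 0.14, adjusted p = 3.29e-06) and 1.28 log2 units (SE 0.14, adjusted p = 2.31e-05) in the same comparisons. Once these trends were taken out, all 4 changes passed but were under 2-fold, at 0.61 and 0.50 log2 units for GATAD2A and 0.97 and 0.95 for GATAD2B.

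CHD3 (chr17:7788114-7816078, plus strand, hg19) had 32.8, 28.0 and 28.0 CPM in S434A with H89, 34.0, 31.0 and 25.2 CPM in S434A without H89, 30.2, 32.2 and 31.0 CPM in WT with H89, and 15.9, 14.04 and 15.8 CPM in WT without H89. Here too WT without H89 did not overlap the rest. CHD3 rose by 1.03 log2 units (SE 0.12, adjusted p = 1.52e-05) with H89 in WT cells and by 0.98 in S434A relative to WT cells without H89 (adjusted p = 3.59e-05), and with the trends removed it was at 0.28 and 0.14, the second no longer past the test. CHD4 rose by 0.96 log2 units and 0.83 in these comparisons (adjusted p = 0.000200 and 0.000730) and passed in neither with the trends removed, at 0.16 and 0.13. MTA2 (chr11:62360686-62369337, minus strand, hg19) had 73.3, 74.9 and 73.7 CPM in S434A with H89, 85.3, 74.6 and 58.9 CPM in S434A without H89, 81.8, 78.1 and 74.7 CPM in WT with H89, and 46.2, 46.4 and 50.1 CPM in WT without H89. It was lowest in WT without H89 without overlap, and rose by 0.72 log2 units (SE 0.11, adjusted p = 0.000165) with H89 in WT cells and by 0.62 log2 units (SE 0.11, adjusted p = 0.000639) in S434A relative to WT cells without H89. MTA1 rose by 0.78 log2 units and 0.84 there (adjusted p = 8.10e-05 and 6.47e-05), and was at 0.06 and -0.08 with the trends removed, where neither passed.

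The remaining NuRD subunits differed by less between groups in the counts as deposited. MTA3 fell in S434A relative to WT cells without H89, at -0.26 log2 units (adjusted p = 0.00331) and rose by 0.37 with H89 in S434A cells (adjusted p = 0.000855). With H89 in WT cells it rose by 0.17 log2 units (adjusted p = 0.0235), was at 0.02 with RLE factors, and fell with the trends removed, at -0.49 (adjusted p = 0.000101). MBD2, which binds methylated DNA, rose with H89 by 0.45 log2 units in S434A cells (adjusted p = 0.00355) and by 0.30 in WT cells (adjusted p = 0.0132), and passed in neither with the trends removed, at 0.16 and 0.16. MBD3, its paralog, passed in no comparison with TMM scaling. With RLE factors it fell with H89, at -0.36 log2 units in S434A cells (adjusted p = 0.0153) and at -0.34 in WT cells (adjusted p = 0.0130). With the trends removed MBD3 fell, at -1.06 log2 units with H89 in WT cells (adjusted p = 9.76e-09) and at -0.91 in S434A relative to WT cells without H89 (adjusted p = 1.53e-07). The GC content of MBD3 is 62.5%.

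**Figure D2:**
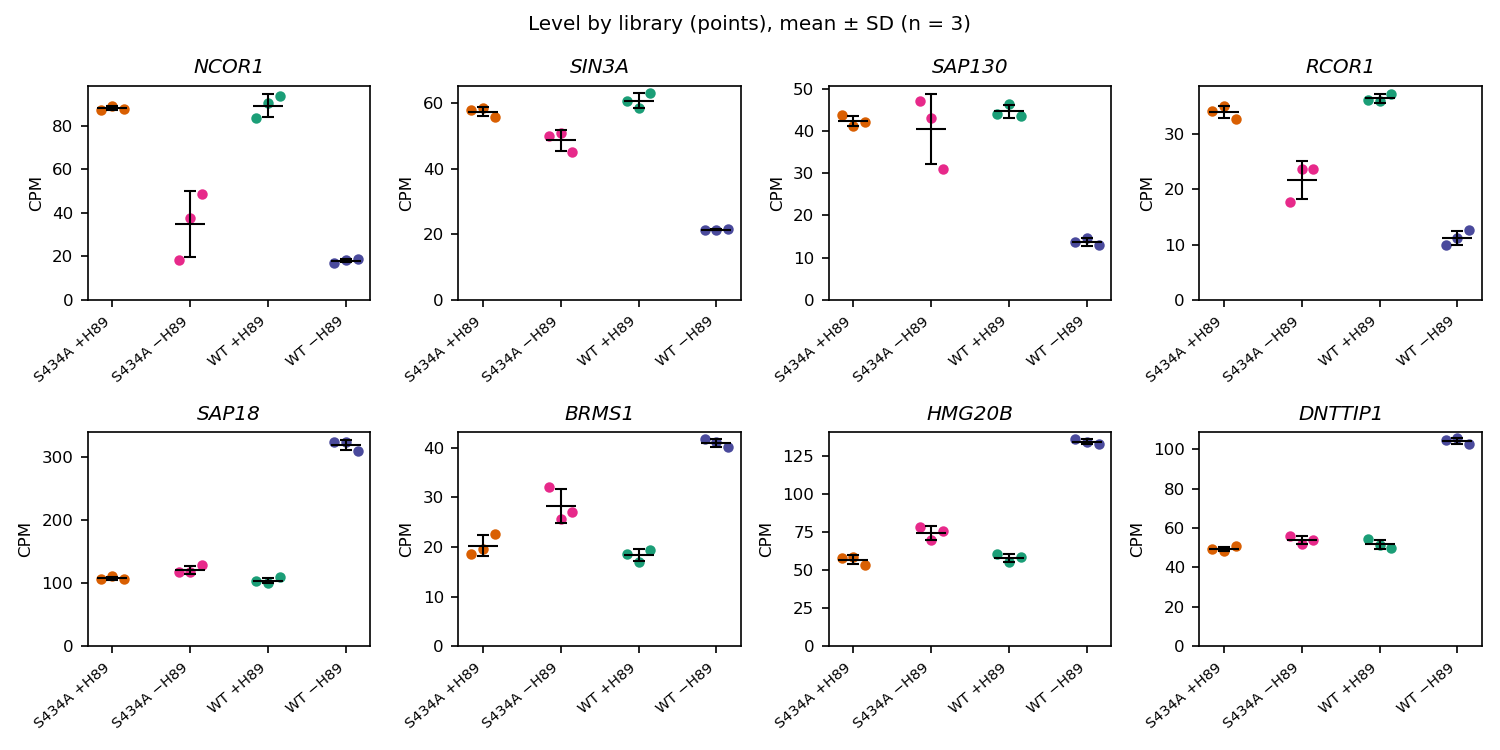
Level of 8 subunits (CPM, vertical axis from 0) in each library of the 4 groups (points), with the group mean and SD (bars, n = 3). NCOR1, SIN3A, SAP130 and RCOR1 are lowest in WT without H89, and SAP18, BRMS1, HMG20B and DNTTIP1 are highest there.

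CoREST joins the deacetylase to the demethylase KDM1A through a scaffold of the RCOR family. RCOR1 (chr14:103058986-103196898, plus strand, hg19) had 34.2, 35.1 and 32.8 CPM in S434A with H89, 17.7, 23.8 and 23.7 CPM in S434A without H89, 36.2, 36.05 and 37.4 CPM in WT with H89, and 9.99, 11.2 and 12.6 CPM in WT without H89. The order of the groups was the same in every library: both treated groups above S434A without H89, and that group above WT without H89. RCOR1 rose by 1.70 log2 units (SE 0.12, adjusted p = 4.50e-07) with H89 in WT cells, by 0.95 log2 units (SE 0.12, adjusted p = 6.30e-05) in S434A relative to WT cells without H89, and by 0.65 with H89 in S434A cells (adjusted p = 0.00192), the last at 0.27 with the trends removed. RCOR2 (chr11:63678702-63684636, minus strand, hg19) had 13.3, 14.9 and 14.6 CPM in S434A with H89, 15.5, 14.5 and 9.50 CPM in S434A without H89, 15.5, 15.4 and 13.3 CPM in WT with H89, and 6.46, 5.33 and 6.74 CPM in WT without H89. WT without H89 was the lowest group, and replicate 3 of S434A without H89 came nearest to it. RCOR2 rose by 1.26 log2 units (SE 0.18, adjusted p = 7.54e-05) with H89 in WT cells and by 1.09 log2 units (SE 0.18, adjusted p = 0.000297) in S434A relative to WT cells without H89, where it was at 0.95 without replicate 1 of S434A and at 0.69 with the trends removed.

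The third scaffold, RCOR3 (chr1:211431719-211489727, plus strand, hg19), had 10.5, 12.4 and 12.4 CPM in S434A with H89, 4.52, 6.70 and 6.65 CPM in S434A without H89, 11.2, 11.2 and 10.6 CPM in WT with H89, and 4.43, 5.16 and 5.18 CPM in WT without H89. The treated libraries lay above all untreated ones. RCOR3 rose by 1.16 log2 units (SE 0.15, adjusted p = 4.97e-05) with H89 in WT cells and by 0.98 in S434A cells (adjusted p = 0.000735), and neither passed with the trends removed, at 0.56 and -0.43. KDM1A (chr1:23345936-23410182, plus strand, hg19), the histone lysine demethylase of the complex, had 148, 141 and 142 CPM in S434A with H89, 165, 154 and 126 CPM in S434A without H89, 149.7, 149 and 146 CPM in WT with H89, and 96.6, 99.9 and 98.3 CPM in WT without H89. It was lowest in WT without H89 without overlap. KDM1A rose by 0.59 log2 units (SE 0.085, adjusted p = 9.11e-05) with H89 in WT cells and by 0.60 log2 units (SE 0.085, adjusted p = 0.000123) in S434A relative to WT cells without H89.

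PHF21A (chr11:45950870-46143005, minus strand, hg19), which reads unmethylated histone tails, had 49.0, 49.6 and 42.0 CPM in S434A with H89, 33.4, 38.8 and 34.4 CPM in S434A without H89, 49.7, 48.3 and 52.0 CPM in WT with H89, and 18.1, 19.9 and 19.1 CPM in WT without H89. WT without H89 was below all other groups, and S434A without H89 was below both treated groups. PHF21A rose by 1.39 log2 units (SE 0.090, adjusted p = 1.70e-07) with H89 in WT cells, by 0.90 in S434A relative to WT cells without H89 (adjusted p = 1.07e-05) and by 0.40 with H89 in S434A cells (adjusted p = 0.00458). After trend removal all 3 passed, at 0.67, 0.32 and 0.29 log2 units, under 2-fold each. HMG20B (chr19:3572775-3579086, plus strand, hg19), an HMG-box subunit, had 58.4, 58.8 and 53.7 CPM in S434A with H89, 78.2, 69.6 and 75.8 CPM in S434A without H89, 60.7, 55.3 and 58.6 CPM in WT with H89, and 137, 134 and 133 CPM in WT without H89. It was the one CoREST subunit with its highest level in WT without H89, and S434A without H89 lay between that group and the treated ones. HMG20B fell with H89 in WT cells, at -1.21 log2 units (SE 0.066, adjusted p = 4.83e-08), and in S434A relative to WT cells without H89, at -0.85 log2 units (SE 0.066, adjusted p = 1.84e-06), and with the trends removed these falls were larger, at -1.71 and -1.59. With H89 in S434A cells it was at -0.39 log2 units (adjusted p = 0.00119), and this fall did not pass with the trends removed, at -0.13 (adjusted p = 0.430).

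The zinc finger subunit ZMYM2 (chr13:20532810-20665968, plus strand, hg19) had 26.0, 27.2 and 27.9 CPM in S434A with H89, 0.807, 8.92 and 13.1 CPM in S434A without H89, 20.8, 23.4 and 28.4 CPM in WT with H89, and 10.4, 9.14 and 10.1 CPM in WT without H89. The treated libraries were all above the untreated ones, and replicate 1 of S434A without H89 was the lowest by far. ZMYM2 rose by 1.82 log2 units (SE 0.60, adjusted p = 0.0264) with H89 in S434A cells, by 1.29 without that replicate, and by 0.56 with the trends removed. In WT cells it was at 1.29 log2 units (SE 0.58, adjusted p = 0.0689) with H89, and it passed there as a riser with the trends removed.

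NCOR1 is the large nuclear receptor corepressor around which NCoR/SMRT forms. NCOR1 (chr17:15932471-16121499, minus strand, hg19) had 87.0, 88.8 and 87.8 CPM in S434A with H89, 18.3, 37.4 and 48.3 CPM in S434A without H89, 83.4, 90.2 and 93.6 CPM in WT with H89, and 17.03, 18.02 and 18.6 CPM in WT without H89. The treated groups overlapped each other and lay above every untreated library, and the untreated groups overlapped through replicate 1 of S434A. NCOR1 rose by 2.32 log2 units (SE 0.26, adjusted p = 1.91e-05) with H89 in WT cells, and by 1.34 log2 units (SE 0.26, adjusted p = 0.00233) in S434A cells. Once these trends were taken out, these were 1.24 and 0.64 log2 units. In S434A relative to WT cells without H89 it rose by 0.96 log2 units (SE 0.26, adjusted p = 0.00835), and by 1.26 without replicate 1 of S434A and 0.59 with the trends removed. TBL1X (chrX:9431335-9709077, plus strand, hg19), a WD40 subunit, had 78.4, 75.1 and 80.9 CPM in S434A with H89, 71.8, 77.5 and 60.2 CPM in S434A without H89, 76.0, 76.4 and 69.7 CPM in WT with H89, and 41.8, 44.2 and 42.7 CPM in WT without H89. It was lowest in WT without H89 without overlap. TBL1X rose by 0.79 log2 units (SE 0.089, adjusted p = 1.47e-05) with H89 in WT cells and by 0.70 log2 units (SE 0.089, adjusted p = 5.27e-05) in S434A relative to WT cells without H89, and was at 0.23 and 0.41 with the trends removed.

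The paralog of TBL1X, TBL1XR1 (chr3:176737128-176945788, minus strand, hg19), had 24.2, 25.0 and 28.8 CPM in S434A with H89, 2.53, 9.97 and 13.3 CPM in S434A without H89, 27.0, 23.3 and 30.4 CPM in WT with H89, and 11.6, 8.92 and 11.3 CPM in WT without H89. The treated libraries lay above the untreated ones, and replicate 1 of S434A without H89 was again the lowest. TBL1XR1 rose by 1.59 log2 units (SE 0.42, adjusted p = 0.0106) with H89 in S434A cells, by 1.16 there without that replicate, and by 1.34 log2 units (SE 0.41, adjusted p = 0.0137) in WT cells. With the trends removed these rises were under 2-fold, at 0.39 and 0.89 log2 units. GPS2, the remaining subunit followed, had group means of 4.19 to 4.59 CPM and passed in no comparison. The MiDAC scaffold DNTTIP1 (chr20:44420593-44440066, plus strand, hg19) had 49.2, 48.4 and 50.7 CPM in S434A with H89, 56.0, 52.0 and 53.9 CPM in S434A without H89, 54.4, 51.5 and 49.8 CPM in WT with H89, and 105, 106 and 103 CPM in WT without H89. WT without H89 lay above all other libraries. DNTTIP1 fell with H89 in WT cells, at -1.01 log2 units (SE 0.059, adjusted p = 7.41e-08), and in S434A relative to WT cells without H89, at -0.95 log2 units (SE 0.059, adjusted p = 5.61e-07). After trend removal both passed but were under 2-fold, at -0.35 log2 units (adjusted p = 7.86e-05) and -0.75.

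The comparisons can now be read by their counts. A subunit is said to have risen or fallen at an adjusted p under 0.05 at any fold, and to be called where the fold was also over 2, the thresholds stated for the series. All 36 subunits were among the 14435 genes tested, over which the Benjamini-Hochberg adjustment ran. The first comparison is between genotypes in the absence of H89. In S434A relative to WT cells without H89, 15 of 36 subunits rose (41.7%, against 29% of all genes tested) and 9 fell (25%, against 29.3%). Those that rose were SIN3A, SIN3B, SAP130, CHD3, CHD4, MTA1, MTA2, GATAD2A, GATAD2B, RCOR1, RCOR2, KDM1A, PHF21A, NCOR1 and TBL1X. Those that fell were SAP18, SAP30, SAP30L, SUDS3, BRMS1, RBBP7, MTA3, HMG20B and DNTTIP1. Called were 5 upwards (13.9%, against 11.6%), which were SIN3A, SAP130, GATAD2A, GATAD2B and RCOR2, and 2 downwards (5.56%, against 11.3%), SAP18 and SAP30. By complex, 3 of 13 SIN3 subunits rose and 5 fell, 6 of 9 NuRD subunits rose and 1 fell, and 4 of 7 CoREST subunits rose and 1 fell. The groups did not overlap for 14 subunits that were higher (29% of all genes) and 11 that were lower (33.7%). The median log2 fold change of the 36 was -0.05, against -0.04 over all genes. With only the 6 libraries compared, 15 rose and 7 fell, against 4493 and 2478 of 13893 genes. SIN3B, CHD3, CHD4, MTA1, RCOR1, PHF21A and NCOR1 were then also past 2-fold, at 1.04 to 1.19 log2 units. SAP30 was under 2-fold at -0.92, and SUDS3 and MTA3 no longer passed as fallers (adjusted p = 0.0867 and 0.615). Over all genes 2397 were then called upwards and 921 downwards.

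With GC and length trends removed, 13 subunits were higher in S434A without H89 (29.1% of all genes) and 9 lower (28.7%), with 11 and 8 of them the same as in the 12 libraries as deposited. SIN3B, CHD3, CHD4 and MTA1 no longer passed as risers and RBBP7 as a faller, while RCOR3, at 1.02 log2 units, and TBL1XR1, at 0.40, passed as higher and MBD3 as lower. By complex, 3 of 9 NuRD subunits were then higher and 2 lower. CoREST had 5 of 7 higher and 1 lower, and SIN3 had 2 of 13 higher and 5 lower. Past 2-fold were then SAP130, RCOR1 at 1.04 log2 units and RCOR3 upwards (5.09% of all genes) and HMG20B downwards (6.17%). Without replicate 1 of S434A and with the trends removed, RCOR3 was under 2-fold at 0.61 log2 units. The smallest adjusted p after that step belonged to SAP130 (9.24e-08), MBD3 (1.53e-07) and DNTTIP1 (2.68e-07), the last at -0.75 log2 units.

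The second comparison asks the same of treated cells. In S434A relative to WT cells with H89, 0 of 36 subunits rose and 0 fell, against 0% of the 14435 genes by edgeR's quasi-likelihood test. At an unadjusted p under 0.05 there were 0 of 36 subunits and 589 of all genes, and over all genes DESeq2 found 2 genes higher and 0 lower and limma-voom 2 higher and 1 lower, with 0 subunits among them. The 36 log2 fold changes ran from -0.18 for GATAD2B (SE 0.14) to 0.28 for ARID4A (SE 0.55). The groups did not overlap for SAP30L, which was higher (8.8% of all genes), and RCOR1, which was lower (8.46%). After trend removal the smallest adjusted p were 0.629 for DNTTIP1, 0.673 for MBD3 and 0.697 for RCOR1.

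The next question is what H89 changed within a genotype. H89 in S434A cells raised 14 of 36 subunits (38.9%, against 29.3% of all genes) and lowered 3 (8.33%, against 22.7%). The 3 that fell were SAP18, BRMS1 and HMG20B. The risers were RCOR1, RCOR3, PHF21A and ZMYM2 of CoREST, NCOR1 and TBL1XR1 of NCoR/SMRT, MTA3 and MBD2 of NuRD, RBBP4, and SIN3A, SAP30L, SUDS3, BRMS1L and ING1 of SIN3. Called upwards were 4 (11.1%, against 15.2%), namely BRMS1L, ZMYM2, NCOR1 and TBL1XR1, and downwards 0 (2.35% of all genes). The treated and untreated libraries did not overlap for 16 subunits that were higher (33.1% of all genes) and 4 that were lower (23.2%). The median was 0.16, against 0.01 over all genes. With the trends removed, 13 rose (20.7% of all genes) and 3 fell (23.1%), of which 7 and 1 were the same as before, and no subunit was past 2-fold (2.52% of all genes upwards and 3.89% downwards). SAP30, SAP130, ING2, MTA2, RCOR2 and DNTTIP1 joined the risers, RBBP7 joined the fallers, and RBBP4 turned. The smallest adjusted p were then those of NCOR1 at 0.64 log2 units (0.000714), SAP30 at 0.53 (0.00117) and DNTTIP1 at 0.29 (0.00158). With RLE size factors (relative log expression, a scaling other than TMM), 10 rose and 5 fell, against 3566 and 4273 of the 14435 genes. The count of risers was 5 when only the 6 libraries compared were used, where 1171 of 13787 genes rose. It was 7 to 19 when single libraries were left out, against 2174 to 4976 risers over all genes.

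H89 in WT cells raised 20 of 36 subunits (55.6%, against 38.8% of all genes) and lowered 7 (19.4%, against 30.9%). By complex, 8 of 9 NuRD subunits rose and none fell, 5 of 7 CoREST subunits rose and HMG20B fell, 3 of 4 NCoR/SMRT subunits rose, and SIN3 was split with 4 risers and 4 fallers of 13. The fallers were SAP18, SAP30, SAP30L, BRMS1, RBBP7, HMG20B and DNTTIP1. Called upwards were 11 (30.6%, against 22.2%), which were SIN3A, SAP130, CHD3, GATAD2A, GATAD2B, RCOR1, RCOR2, RCOR3, PHF21A, NCOR1 and TBL1XR1, and downwards 5 (13.9%, against 15.8%), which were SAP18, SAP30, BRMS1, HMG20B and DNTTIP1. Treated and untreated libraries did not overlap for 23 subunits that were higher (47.6% of all genes) and 8 that were lower (35.5%). The median log2 fold change of the 36 was 0.71, against 0.20 over all genes. With RLE size factors the median of all genes was 0.05, and 17 subunits rose and 8 fell, against 4779 and 5046 of the 14435 genes. CHD3 and GATAD2A were then under 2-fold at 0.88 and 0.95.

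When GC and length trends were removed, the H89 effect in WT cells left 15 subunits higher (37.9% of all genes) and 11 lower (35%). Of the 20 risers 13 stayed, MTA3 turned, and SIN3B, ING1, CHD4, MTA1, MBD2 and RCOR3 no longer passed. All 7 fallers stayed, and SUDS3, RBBP4 and MBD3 joined them. Of the 9 NuRD subunits only 4 still passed as risers (CHD3, MTA2, GATAD2A and GATAD2B), and 2 passed as fallers (MTA3 and MBD3). CoREST still counted 5 risers and 1 faller of 7, and NCoR/SMRT 3 risers of 4. SIN3 counted 3 risers and 5 fallers of 13. Past 2-fold were 4 upwards (13.4% of all genes), SAP130, RCOR1 at 1.44 log2 units, RCOR2 at 1.22 and NCOR1 at 1.24, and 4 downwards (14.8%), SAP18 at -1.44, RBBP7 at -1.29, MBD3 and HMG20B. SAP130 (2.78e-09), RCOR1 (6.56e-09) and MBD3 (9.76e-09) had the smallest adjusted p.

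**Figure D3:**
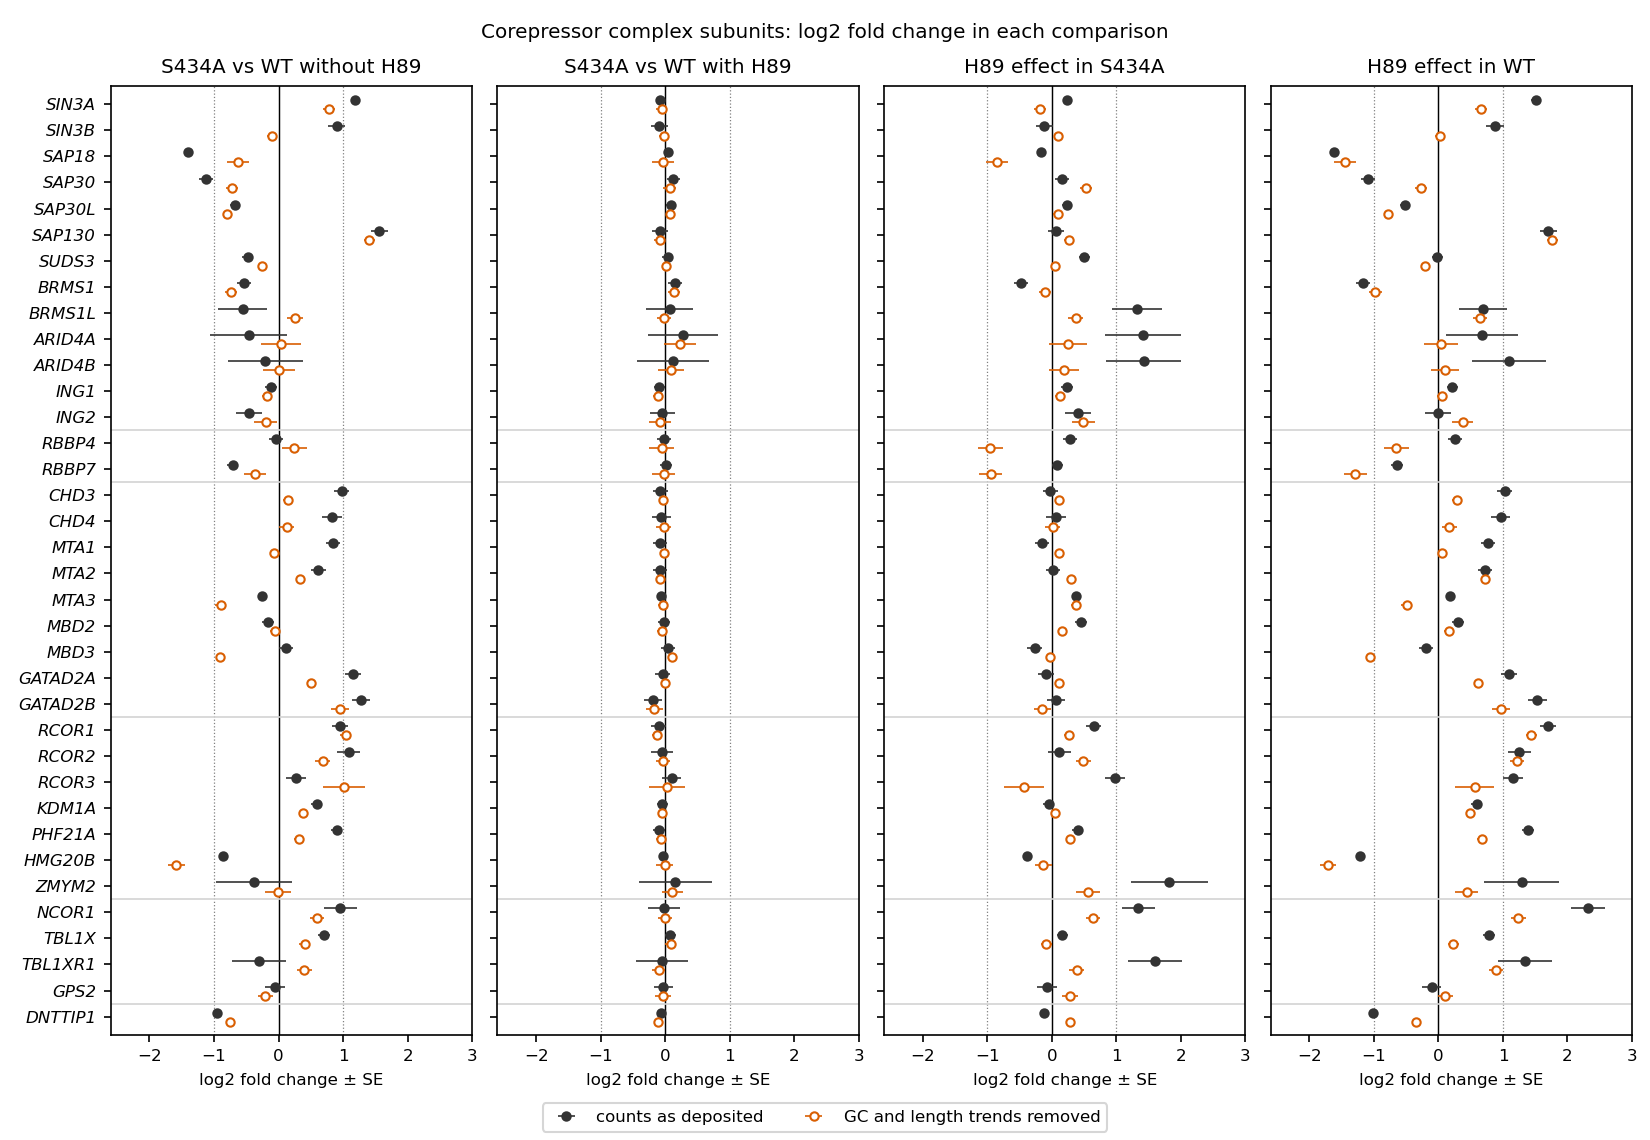
Log2 fold change with its standard error for each of the 36 subunits in the 4 comparisons of 2 groups, from the counts as deposited (filled points) and after removal of each library's GC and length trends (open points). Dotted lines mark a 2-fold change. S434A relative to WT with H89 stays between -0.18 and 0.28 for the counts as deposited, while H89 in WT runs from -1.62 to 2.32.

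The difference of the H89 effects between the genotypes was tested as an interaction, S434A minus WT. It was positive for 8 of 36 subunits (22.2%, against 24% of all genes) and negative for 15 (41.7%, against 24%). It rests on the same 12 libraries as the comparisons above. Past 2-fold were SAP18 at 1.45 log2 units and SAP30 at 1.25 upwards (11.7% of all genes), and 7 downwards (12.4%). The 7 were SAP130 at -1.64 log2 units, GATAD2B at -1.46, SIN3A at -1.27, GATAD2A at -1.19, RCOR2 at -1.14, RCOR1 at -1.05 and CHD3 at -1.05. Once these trends were taken out, 8 were positive and 11 negative (23.6% of all genes each). Past 2-fold were then MBD3 and HMG20B upwards (6.99% of all genes) and SAP130, GATAD2B and RCOR1 downwards (5.72%). There SAP130 at -1.49 log2 units, MBD3 at 1.03 and RCOR1 at -1.17 had the smallest adjusted p (2.25e-06, 3.10e-06 and 5.71e-06).

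Length and GC content went with these changes across the 36 genes, which share the same 12 libraries. As a description, Spearman's rho between the H89 effect in WT and exon length was 0.61 over the 36 subunits and 0.46 over all 14435 genes. The 20 risers had a median exon length of 8908 bases (3049 to 15404) and the 7 fallers one of 3396 bases (1309 to 7340). For H89 in S434A cells, rho with GC content was -0.81 over the subunits and -0.66 over all genes. Between replicates of one group, the ratio of replicate 1 of S434A without H89 to the mean of its fellows had a rho of 0.84 with GC content. That ratio was 0.0617 to 0.677 for the 6 subunits under 40% GC, which were BRMS1L, ARID4A, ARID4B, RCOR3, ZMYM2 and TBL1XR1. It was 1.08 to 1.29 for the 6 over 60% GC, which were SIN3B, BRMS1, MTA1, MBD3, RCOR2 and HMG20B. After trend removal the rho of H89 in WT with length was 0.25 and that of H89 in S434A with GC content 0.01.

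**Figure D4:**
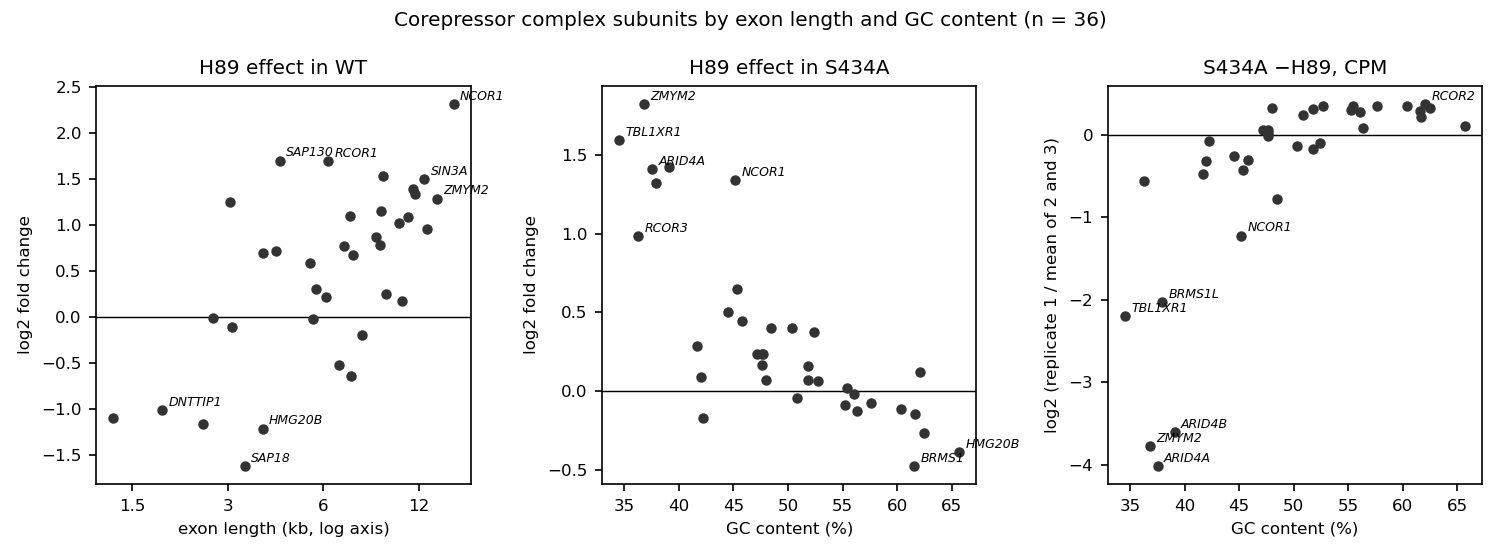
The 36 subunits (points): log2 fold change of H89 in WT against exon length (left, log axis), log2 fold change of H89 in S434A against GC content (middle), and log2 ratio of replicate 1 to the mean of replicates 2 and 3 of S434A without H89 against GC content (right). Longer subunits are higher with H89 in WT (rho 0.61), GC-poor subunits are higher with H89 in S434A (rho -0.81), and GC-poor subunits are low in replicate 1 (rho 0.84).

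Many subunits come as paralogs that fill the same place in a complex, so the ratio of the pair per kilobase was described, with no test, since 3 libraries against 3 cannot give an exact permutation p under 0.10. The mean ratio of SIN3A to SIN3B was 1.04 in S434A with H89, 0.821 in S434A without H89, 1.04 in WT with H89 and 0.667 in WT without H89. That of RBBP4 to RBBP7 was 0.660 in S434A with H89, 0.572 in S434A without H89, 0.672 in WT with H89 and 0.362 in WT without H89. SIN3A and RBBP4 thus had their smallest share of the pair in WT without H89, and both ratios stayed lowest there with the trends removed. The mean ratio of MTA1 to MTA3 was 1.39 in S434A with H89, 1.96 in S434A without H89, 1.41 in WT with H89 and 0.927 in WT without H89. That of BRMS1 to BRMS1L was 1.69 in S434A with H89, 7.04 in S434A without H89, 1.61 in WT with H89 and 5.85 in WT without H89. The ratio of BRMS1 was higher in the untreated groups than in the treated ones, and within S434A without H89 it was highest in replicate 1. That of TBL1X to TBL1XR1 was 3.90 in S434A with H89, 12.9 in S434A without H89, 3.58 in WT with H89 and 5.27 in WT without H89. Its log2 values in S434A without H89 were 5.20, 3.33 and 2.55, highest in replicate 1, and with the trends removed the mean log2 ratio was 2.75 in S434A and 2.76 in WT cells without H89. That of RCOR1 to RCOR3 was 4.25 in S434A with H89, 5.38 in S434A without H89, 4.88 in WT with H89 and 3.35 in WT without H89. It was lowest in WT without H89, and with the trends removed lowest in S434A without H89, at a mean log2 ratio of 1.68 against 1.75 in WT without H89. That of SAP30 to SAP30L was 2.77 in S434A with H89, 2.92 in S434A without H89, 2.68 in WT with H89 and 4.01 in WT without H89. This ratio was highest in WT without H89, and with the trends removed it was lowest there. The ratios of CHD3 to CHD4 and of ARID4A to ARID4B covered 2.62 to 2.90 and 0.714 to 0.972 over the group means.

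**Figure D5:**
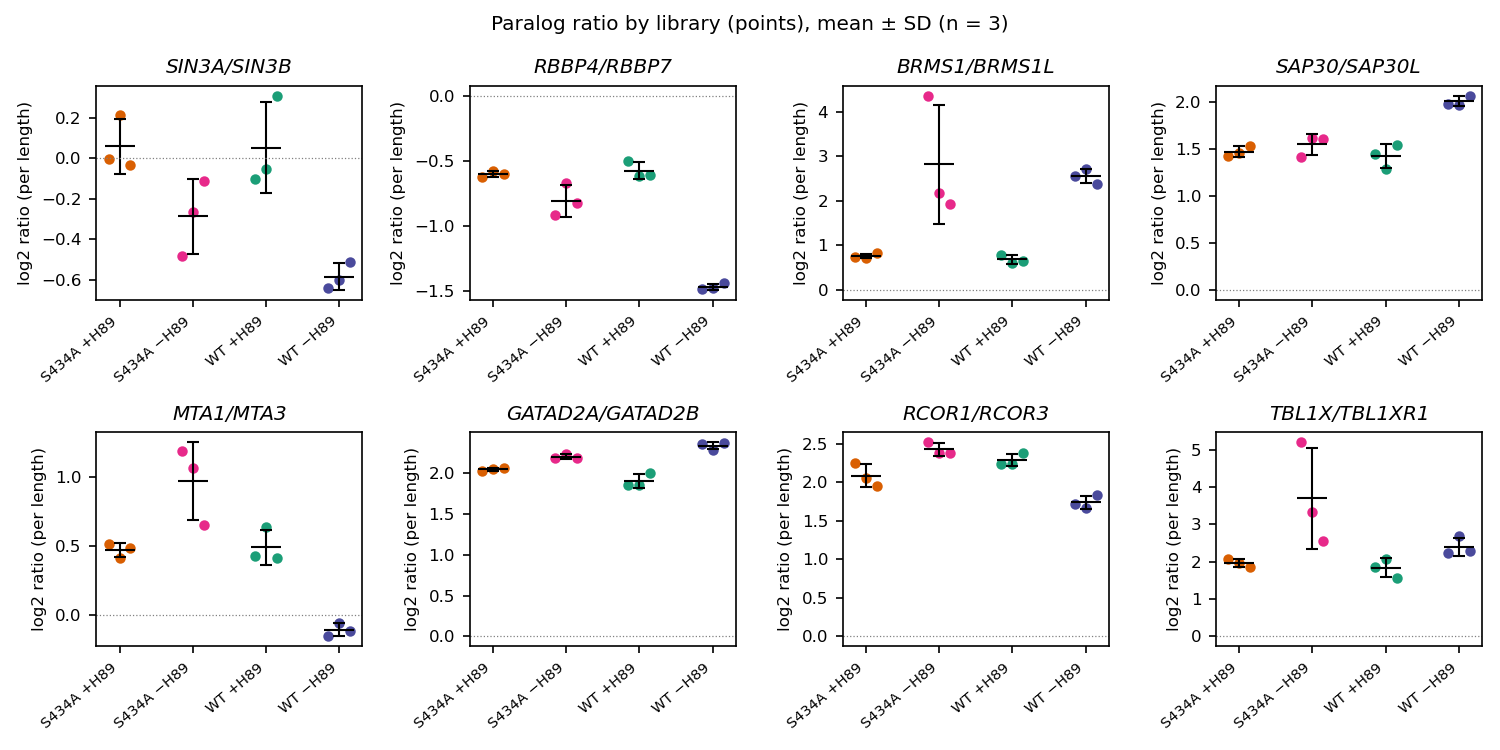
Log2 ratio of 8 paralog pairs, per kilobase of exon, in each library (points), with the mean and SD of each group (bars, n = 3); the dotted line marks equal levels. S434A with H89 and WT with H89 differ by at most 0.20 in mean log2 ratio, and SIN3A/SIN3B, RBBP4/RBBP7, MTA1/MTA3 and RCOR1/RCOR3 are lowest in WT without H89 in these values, in which no trend was removed.

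Promoter sequences of subunits that moved in opposite ways with H89 in WT cells are shown because PKA is known to act through CREB, a factor that binds TGACGTCA or its part TGACG. RefSeq (GRCh38.p14) gave 34 of the 36 promoters, and SAP18 and RCOR2 had no entry. Each is the 250 bases before a start that RefSeq gives the gene, 5′ to 3′ on the gene's strand, and capitals mark TGACG on either strand. Some of these starts, as those of SIN3B and CHD3, lie kilobases inside the gene's deposited span. Such a window need not be the gene's main promoter, and it is kept in the counts below. The promoters shown all hold TGACG, as did 3 of the 10 called risers and 3 of the 4 called fallers with an entry. SAP130, NCOR1, PHF21A and GATAD2B rose and SAP30 fell with H89 in WT cells without a match, and are not shown. DNTTIP1 and HMG20B fell with H89 in WT cells, and SIN3A and RCOR1 rose:
DNTTIP1, chr20:45791704-45791953, plus strand: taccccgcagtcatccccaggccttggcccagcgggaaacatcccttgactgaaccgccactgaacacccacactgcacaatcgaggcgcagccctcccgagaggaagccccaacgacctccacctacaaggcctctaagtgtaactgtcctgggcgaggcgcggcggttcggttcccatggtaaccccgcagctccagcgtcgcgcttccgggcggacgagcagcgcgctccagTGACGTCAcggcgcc
HMG20B, chr19:3572694-3572943, plus strand: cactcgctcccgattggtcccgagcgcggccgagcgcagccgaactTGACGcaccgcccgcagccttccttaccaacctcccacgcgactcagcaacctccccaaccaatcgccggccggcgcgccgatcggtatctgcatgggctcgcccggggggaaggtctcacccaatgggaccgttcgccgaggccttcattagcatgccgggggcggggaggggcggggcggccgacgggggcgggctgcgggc
SIN3A, chr15:75455816-75456065, minus strand: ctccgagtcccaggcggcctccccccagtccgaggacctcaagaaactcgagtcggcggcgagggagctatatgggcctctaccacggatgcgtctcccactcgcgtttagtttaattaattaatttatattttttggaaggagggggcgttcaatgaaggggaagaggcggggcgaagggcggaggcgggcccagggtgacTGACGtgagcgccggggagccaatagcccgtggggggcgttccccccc
RCOR1, chr14:102592399-102592648, plus strand: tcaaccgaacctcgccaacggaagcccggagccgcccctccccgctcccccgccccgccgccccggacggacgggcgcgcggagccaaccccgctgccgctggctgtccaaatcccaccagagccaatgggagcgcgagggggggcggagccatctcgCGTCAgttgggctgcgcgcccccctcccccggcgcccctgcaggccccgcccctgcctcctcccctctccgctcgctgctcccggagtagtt
On both strands, the full TGACGTCA was found in 1 of the 34, DNTTIP1 (2.94%, against 1.65% of 35116 RefSeq promoters of the same length). TGACG, which the full motif contains, was found in 13 of 34 (38.2%, against 21.2%), the SP-family motif GGGCGG in 27 (79.4%, against 42.6%), CCAAT in 14 (41.2%, against 32%) and TATAAA in 2 (5.88%, against 10.7%). TGACG was in the promoters of SIN3A, GATAD2A and RCOR1 among the 10 called risers with an entry, and of BRMS1, HMG20B and DNTTIP1 among the 4 called fallers with one. A match is a run of letters only. The GC content of the 34 windows ran from 42.8% for SIN3B to 84% for PHF21A. The RefSeq promoters compared were not matched to them in GC content or expression, and the part of either in these shares was not tested.

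Other genes of these complexes were read from a list of 27, of which 23 were tested and CHD5, CTBP2, PHF21B and TRERF1 were not. In S434A relative to WT cells without H89, 8 of the 23 rose and 4 fell (29% and 29.3% of all genes), and with H89 none did. The 2 with the smallest p were GSE1 at 1.32 log2 units (SE 0.094, adjusted p = 1.10e-06), and HDAC3 at -0.70 log2 units (SE 0.051, adjusted p = 1.23e-06). HDAC3, the deacetylase of NCoR/SMRT, averaged 94.2 ± 2.94 CPM in S434A and 153 ± 1.61 CPM in WT cells without H89 (SD, n = 3). GSE1, which copurifies with KDM1A, averaged 92.9 ± 12.9 CPM and 37.2 ± 0.847 CPM in the same groups. H89 in S434A cells raised 9 and lowered 2 (29.3% and 22.7% of all genes), with HDAC3 at -0.27 log2 units (SE 0.051, adjusted p = 0.00187). H89 in WT cells raised 13 and lowered 3 (38.8% and 30.9%), with HDAC3 at -0.93 log2 units (SE 0.051, adjusted p = 4.85e-08), and GSE1 at 1.71 log2 units (SE 0.095, adjusted p = 5.19e-08). The difference of H89 effects was positive for 3 and negative for 8 (24% each), with GSE1 at -1.57 log2 units (SE 0.13, adjusted p = 9.70e-06), and MIDEAS at -1.58 log2 units (SE 0.16, adjusted p = 2.96e-05), a MiDAC subunit gene. After trend removal 14 rose and 7 fell in S434A relative to WT without H89, 7 and 4 with H89 in S434A cells, 16 and 6 with H89 in WT cells, and the difference was positive for 6 and negative for 12. GSE1 was then at 0.48 in S434A relative to WT without H89 and at 0.87 with H89 in WT, under 2-fold in both. HDAC3 passed in these comparisons, at -0.88 and -0.92, but not with H89 in S434A cells, at -0.10 (adjusted p = 0.247). For the difference of H89 effects GSE1 was at -0.69 and MIDEAS at -0.60, past the test but under 2-fold.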

How the data were processed

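RNA sequencing of 12 HepG2 libraries (4 groups, 3 replicates each) was deposited as a table of counts per gene. Per the file header, the authors made these counts with featureCounts 2.0.1 on read pairs over exons of an hg19 annotation. Bowtie 0.12.2 and hg19 are given in the submitters' processing notes. The command sets no option for strand, multiple mapping or overlapping genes, so that genes sharing exons are uncertain. Whether the replicates come from separate cultures is not stated, and p-values then measure the spread between these samples.

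Genes passing filterByExpr (minimum count 10) were scaled by TMM and tested with edgeR 4.0.16 (quasi-likelihood, robust, R 4.3.3) over all 12 libraries without a block, with Benjamini-Hochberg adjustment over 14435 genes. SE is the log2 fold change over the root of F. Trend removal took a smooth trend on GC content and exon length (natural splines, 5 degrees of freedom each, with their interaction) out of each library by an offset, for all 14435 genes tested. Of these, 14280 had a GC value, and the rest were given the median GC content of the genes counted. GC content is that of the longest annotated transcript. Trend removal also made the mean log2 level over the genes tested equal between libraries, and so rescaled them. The median log2 fold change of all genes with H89 in WT cells was 0.20 before it and 0.05 after it. How much of a change after trend removal comes from this rescaling was not tested. Alternatives were RLE factors, DESeq2 1.42.0, limma-voom 3.58.1, no filter, only the groups compared, a replicate block, trend removal and leaving out each library. The tests were checked on simulated counts. Members and lists were chosen with earlier results of these data known. Subunits called in any comparison, and the highest of each complex, are given in every library, and other genes are named by smallest p, except for a result that is not reported here.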

Additional observations from a re-analysis of the deposited data

Results flagged for a closer look

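For 23 of the 36 subunits the H89 effect differed between S434A and WT cells by a test of the interaction (edgeR's quasi-likelihood test, adjusted p under 0.05 over 14435 genes). The difference was positive for 22.2% of the subunits and negative for 41.7%, against 24% of all genes each way. The values below are S434A minus WT, in log2 units, and share the untreated WT libraries with the comparisons above. In SIN3 the difference was -1.27 for SIN3A, -0.99 for SIN3B and -1.64 for SAP130, and 1.45 for SAP18, 1.25 for SAP30, 0.75 for SAP30L, 0.52 for SUDS3 and 0.69 for BRMS1. RBBP7, of SIN3 and NuRD, had 0.72. In NuRD it was -1.05 for CHD3, -0.90 for CHD4, -0.92 for MTA1, -0.70 for MTA2, -1.19 for GATAD2A and -1.46 for GATAD2B. CoREST had -1.05 for RCOR1, -1.14 for RCOR2, -0.64 for KDM1A and -0.99 for PHF21A, and 0.82 for HMG20B. NCoR/SMRT had -0.98 for NCOR1 and -0.63 for TBL1X, and DNTTIP1 of MiDAC had 0.88. With GC and length trends removed, SAP18, RBBP7, SIN3B, CHD3, CHD4, MTA1 and TBL1X no longer passed.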

How the results depend on the processing

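In S434A cells the 14 subunits that rose with H89 became 9 with limma-voom, 5 with no filter on low counts and 5 with only the groups compared, and the 3 that fell became 5 with RLE size factors, 5 with DESeq2 and 1 with only the groups compared. Over all genes the 4224 risers became 3090 with limma-voom, 2435 with no filter and 1171 with only the groups compared. The 3280 fallers became 4273 with RLE size factors, 4256 with DESeq2 and 1572 with only the groups compared. In WT cells the 7 that fell with H89 became 11 with GC and length trends removed, also with the replicate block and without S434A replicate 1. Leaving out single libraries gave 15 to 16 risers and 9 to 10 fallers in S434A relative to WT without H89, 0 and 0 with H89, 7 to 19 and 3 to 7 for H89 in S434A, 16 to 25 and 7 to 8 for H89 in WT, and 8 to 9 and 14 to 15 for the difference. For H89 in S434A the risers were 8, 7 and 7 without replicates 1, 2 and 3 of S434A with H89 and 9 without replicate 2 of S434A without H89. Its fallers were 5 without each replicate of S434A with H89 or of WT with H89 and without replicate 2 of S434A without H89, and 7 without its replicate 3. The cause was not tested.

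Of 36 called values, trend removal kept 10 past the threshold, RLE 32, DESeq2 33, limma-voom 36 and no filter 29, and none reversed. With only the groups compared, 21 of 27 kept it. Over single left-out libraries 393 of 432 kept it. For H89 in WT cells CHD3 was under 2-fold without any one of 8 libraries (lowest 0.85 log2 units), GATAD2A without any one of 6 (0.90) and RCOR3 without replicate 1 or 2 of WT with H89 (0.98), while TBL1XR1 stayed past 2-fold (lowest 1.10) but missed the adjusted p without replicate 1 or 3 of WT with H89 or replicate 2 of WT without H89. For H89 in S434A cells BRMS1L lost its call without replicate 2 or 3 of S434A with H89 or replicate 1 of S434A without H89 (0.90), and ZMYM2 missed the adjusted p without any replicate of S434A with H89 or replicate 2 of S434A without H89. RCOR2 in S434A relative to WT without H89 was under 2-fold without replicate 1 or 2 of S434A or replicate 2 of WT (0.95). In the difference of H89 effects the calls of CHD3 (5 libraries), RCOR1 (4) and RCOR2 (1) were each lost without one library. Same-numbered replicates correlated from -0.153 to 0.471 in their deviations from the group means. The 0.471, for replicate 3 of S434A without H89 and WT with H89, was above the highest of differently numbered replicates, 0.304. Between the treated groups the highest were 0.0727 for same-numbered and 0.149 for differently numbered replicates. These values do not settle whether the replicates are paired. The labels do not state it, and the numbers were not taken as pairs. With the replicate block 15 and 10, 0 and 0, 15 and 3, 19 and 7, and 8 and 15 subunits rose and fell in the 5 comparisons, and all 36 called values kept their side. The fit to only the groups compared was not run for the difference. Depth limits ARID4A most, with 5 counts in its lowest library.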
